A study of Sus scrofa with 54 samples.

Results

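Left ventricular myocardium taken with a conventional bioptome was compared with whole blood from the same pigs before any follow-up. The comparison used 12 of the 54 sequenced samples, chosen by their labels: the 6 conventional endomyocardial biopsy (conventional EMB) samples of the baseline timepoint, here called heart samples, and the 6 blood samples. Each tissue had 3 samples from pig 4491 and 3 from pig 4494. The study developed a miniaturized biopsy device and sequenced blood as a contrast for heart tissue; the other samples were micro-EMB, skeletal muscle and follow-up conventional EMB samples. Both animals were naïve adult female Yorkshire-Swedish farm swine, anaesthetised and given amiodarone for the procedure. Heart biopsies were cut from the left ventricle with a forceps introduced through the femoral artery, so each is a small, mixed piece of wall with the blood it held. The 3 samples of a tissue and pig are repeats from 1 animal, and the p-values below therefore measure the spread between these samples in only 2 animals.

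Working myocardium consists of large contractile cells packed with sarcomeres and mitochondria, in a bed of capillary endothelium, fibroblasts, smooth muscle and resident macrophages. Whole blood contributes RNA from reticulocytes, which still make hemoglobin, from white cells and from platelets, which inherit their RNA from megakaryocytes. A biopsy passes through the blood-filled ventricle and contains blood in its vessels, so genes of both tissues can be counted in it. In such bulk samples, fewer cells of a type and less RNA per cell cannot be told apart.

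Between 950326 and 2348370 reads were counted on genes in the heart samples and between 1141524 and 3992944 in the blood samples. Levels are given as normalized CPM, the counts scaled to a common total with edgeR's TMM factors. Differences are log2 fold changes of heart over blood with an approximate standard error (SE). This SE is the size of the log2 fold change divided by the square root of the F value of the test below. For genes at or near 0 in a tissue, both rest on few counts. Genes were called where the log2 fold change exceeded 1 in either direction with an adjusted p-value below 0.05 (edgeR's quasi-likelihood test with pig as a covariate, Benjamini-Hochberg adjustment over all genes tested). In 5 heart samples the most counted gene was MYH6, the alpha myosin heavy chain, with 5.87% to 9.55% of the counts. In heart sample 38, from pig 4494, it was ACTB, cytoplasmic actin, with 4.89%. Sample 38 did not match the other heart samples in its muscle genes. The 16 sarcomere genes summed to 1568 CPM there, against 115703 to 188912 CPM in the other 5 heart samples and 43.9 to 74.7 CPM in blood. Its endothelial and matrix lists kept 69.8% and 47.1% of the median of the other 5 heart samples. Counts and medians of gene lists are therefore given with and without this sample, and "the other 5 heart samples" always means without it. Of the 107 genes that the rule for named genes took and that were called with sample 38, 107 were called in the same direction without it. The rule mostly took the smallest p-values of the fit with sample 38, which favours such agreement. Over all genes called with sample 38 and tested both ways, 2566 kept their direction and 57 were no longer called. A single difference printed for a gene is over all 12 samples unless stated.

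Over all 12 samples 9388 genes were tested, of which 1669 (17.8%) were called higher in heart and 960 (10.2%) higher in blood, 28.0% in all. Without sample 38, 10052 genes were tested, with 2565 (25.5%) higher in heart and 1795 (17.9%) higher in blood, 43.4% in all. Of the 9344 genes tested both ways, 2566 were called in the same direction and 0 in opposite directions. Another 1228 of these genes were called only without sample 38, and 818 of them were higher in blood. A further 566 genes called without sample 38 had not passed the count filter with it, and 530 of those were higher in heart. Samples of the tissues did not overlap for 958 genes higher in heart (10.2%) and 642 higher in blood (6.84%), or for 2326 (23.1%) and 1357 (13.5%) once sample 38 was left out. The median log2 fold change over all genes tested was 0.04 with sample 38 and 0.05 without it. The share of calls that were higher in heart, 63.5%, depended on the scaling: with total counts alone it was 48.8% (1456 higher in heart, 1529 higher in blood) and the median moved to -0.23.

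**Figure D1:**
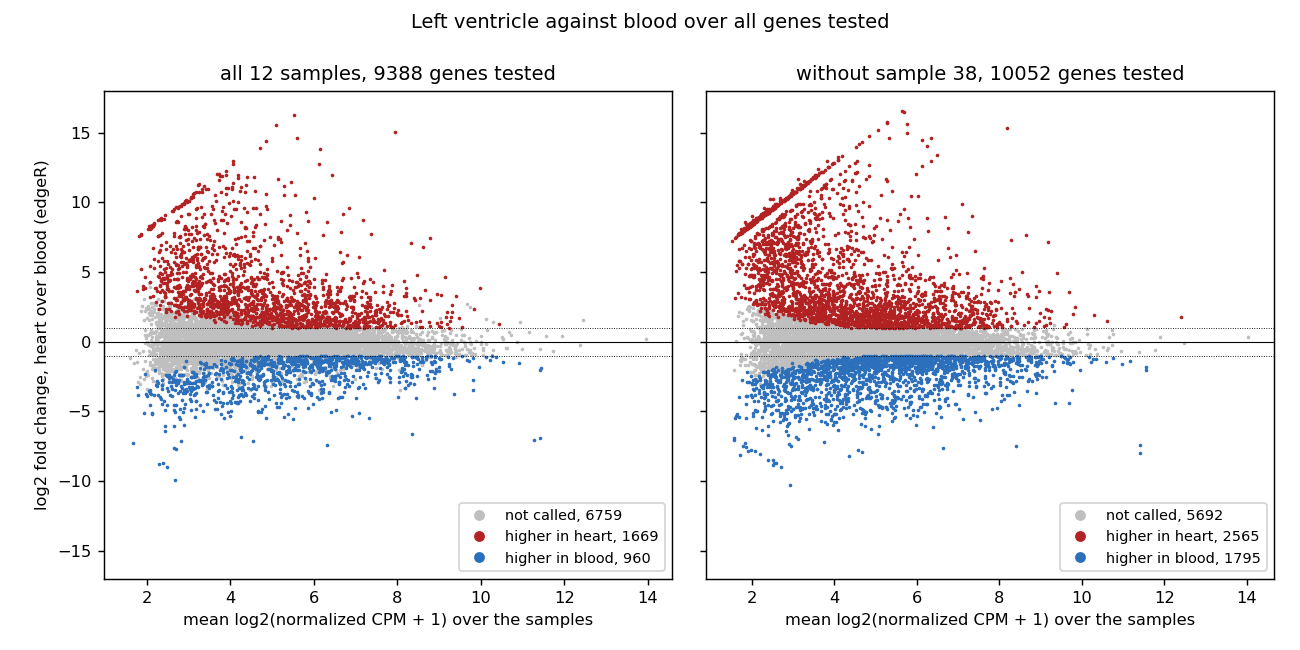
Each point is a tested gene, plotted by its mean log2(normalized CPM + 1) over the samples and its log2 fold change of heart over blood, with all 12 samples on the left and without sample 38 on the right. Red and blue points are the genes called higher in heart (1669 and 2565) and in blood (960 and 1795), dotted lines mark log2 fold changes of 1 and -1, and the straight edge of red points at the upper left holds genes with 0 counts in blood, whose fitted fold change has no fixed size.

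Genes of the contractile apparatus were at low levels in blood. Of the 16 sarcomere genes in the table, 10 were tested and 10 of 10 were called higher in heart, with a median log2 fold change of 9.95. Without sample 38 it was 15 of 15, with a median of 11.29. A gene near 0 in either tissue could pass the count filter only through the other tissue. Its direction was then largely fixed in advance, here and in later lists. TNNT2, cardiac troponin T, had 7329.5, 10613 and 12339 CPM (lowest, median and highest) in the other 5 heart samples, 38.3 in sample 38 and 0, 0 and 1.78 in blood. Every heart sample lay above every blood sample, yet sample 38 was far closer to blood. The difference was 13.82 ± 1.48 (edgeR adjusted p = 1.87e-05), and 14.07 ± 0.63 without sample 38 (edgeR adjusted p = 4.86e-11).

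MYBPC3, myosin binding protein C, had 3699, 4831 and 6654 CPM in the other 5 heart samples, 50.7 in sample 38 and 3.2, 10.7 and 15.6 in blood. Its difference was 8.72 ± 1.00 with sample 38 and 9.06 ± 0.43 without it (edgeR adjusted p = 2.85e-05 and 9.02e-11). NEBL, the thin-filament protein nebulette, had 5362, 5979 and 6796 CPM in the other 5 heart samples and 15.6 in sample 38, next to the highest blood sample at 15.5. For TPM1, tropomyosin, sample 38 kept a larger part, 1326 CPM against 6411, 7431 and 9469 in the other 5 heart samples and 18.2, 40 and 51 in blood. Tropomyosin is also made in non-muscle cells. MYOM1, the M-band protein myomesin, had 2632, 2921 and 4704 CPM in the other 5 heart samples, 57.8 in sample 38 and 0, 1.9 and 4.67 in blood. The log2 differences were 9.59 for NEBL, 7.46 for TPM1 and 10.31 for MYOM1 with all 12 samples, and 9.90, 7.68 and 10.43 without sample 38.

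MYL3, the ventricular essential light chain, had 4270.3, 5503 and 7793 CPM in the other 5 heart samples and 12.3 in sample 38. In blood it reached at most 0.889 CPM, and the ratio of the 6 heart samples to blood was 33586 (95% Poisson interval 9297 to 277328, counting error only). For TCAP, the titin cap protein, the ratio was 2859.5 (792 to 23612). MYL4, the atrial light chain, had 2.62 to 264 CPM in the other 5 heart samples and SLN, an atrial regulator of the calcium pump, 0 to 20.9 CPM. TNNT2 and ACTC1 mark heart muscle of both atria and ventricles. The ventricular MYH7 and MYL2, cardiac troponin I (TNNI3) and the atrial NPPA had no row by symbol. Because MYH6 and MYH7 are near-identical neighbours, the 64542 to 118752 CPM of MYH6 in the other 5 heart samples is uncertain as a level of that gene alone. ACTC1, cardiac actin, and TNNC1, troponin C, were each at 0 in sample 38, failed the filter with it, and were called without it. The other 5 heart samples had 3377 to 8425 CPM of ACTC1 while blood had 0 counts, at least 30231-fold higher in heart (3 counts over the blood group taken as the floor).

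Genes of excitation and calcium release followed. Without sample 38, 7 of 7 tested calcium handling genes were called higher in heart, against 3 of 3 with it, and the median log2 fold change of the tested genes was 10.78 against 3.29, or 9.16 with genes at 0 in blood set to their lower bound. RYR2, the calcium release channel of the sarcoplasmic reticulum, had 6073, 7533 and 17105 CPM in the other 5 heart samples, 13 in sample 38 and 0, 0.591 and 3.17 in blood. The highest heart sample was well apart from the rest, and blood was near 0 throughout. The difference was 12.76 ± 1.53, and 13.01 ± 0.66 without sample 38 (edgeR adjusted p = 4.07e-05 and 1.81e-10). CAMK2D, the calcium- and calmodulin-dependent kinase, was present in both tissues, with 1017, 1284 and 1867 CPM in the other 5 heart samples and 67.3, 108 and 156 in blood. Sample 38 had 54.6 CPM of it, under every blood sample. ASPH, which encodes the sarcoplasmic reticulum protein junctin among other products, differed by 1.34 ± 0.34 (edgeR adjusted p = 0.00873).

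Of the ion channel and gap junction genes, 3 of 4 tested were called higher in heart, and 7 of 7 without sample 38 (median 9.14, or 7.81 with bounds). GJA1, connexin 43 of the intercalated disc, had 886, 1129.7 and 1349 CPM in the other 5 heart samples, 57.2 in sample 38 and 0 counts in blood, at least 5032-fold higher over the 6 heart samples. ABCC9, the regulatory subunit of a potassium channel, had 440.1 to 631 CPM in the other 5 heart samples, 27.9 in sample 38 and at most 1.89 in blood. KCNIP2, a potassium channel subunit, had 56.7, 78.6 and 95.1 CPM in the other 5 heart samples and 0 in sample 38. KCNH2, another potassium channel, differed by 3.95 ± 1.43 (edgeR adjusted p = 0.0501) and was called without sample 38.

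Cardiac transcription factors and natriuretic peptides were called higher in heart for 5 of 6 tested genes, and for 8 of 9 without sample 38. ANKRD1, a stretch-responsive nuclear cofactor, had 3799.9, 5669.8 and 7699 CPM in the other 5 heart samples, 12.3 in sample 38 and 0 counts in blood. The cardiogenic factors TBX20 and GATA4 also had 0 counts in blood. Over the 6 heart samples they were at least 376-fold and 266-fold higher in heart. PROX1, a homeobox factor of heart muscle and lymphatic endothelium, had 139 to 287 CPM in the other 5 heart samples and 2.35 to 11.3 in blood, with sample 38 inside the blood range at 2.6. MEF2C, which lymphoid and myeloid cells also use, was the exception, with 0.66 ± 0.27 (edgeR adjusted p = 0.0859).

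Genes of energy metabolism differed by smaller factors than sarcomere genes. Of the genes of the TCA cycle and oxidative phosphorylation, 15 of 15 tested were called higher in heart with a median of 3.02, and again 15 of 15 without sample 38 with a median of 3.29. MDH2, malate dehydrogenase, had 808, 1134 and 1496 CPM in the other 5 heart samples, 96.2 in sample 38 and 39.1, 53.6 and 86.2 in blood. IDH2, isocitrate dehydrogenase, had 807 to 1233 CPM in the other 5 heart samples, while sample 38, at 90.3, lay inside the blood range of 46.2 to 108. NDUFA9, a complex I subunit, differed by 3.42 ± 0.52, and by 3.64 ± 0.29 without sample 38. OGDH, the oxoglutarate dehydrogenase, behaved otherwise in sample 38, which had 603 CPM and lay among the other heart samples (369 to 987).

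For fatty acid oxidation and energy transfer, 7 of 8 tested genes were called higher in heart (median 3.41), and 10 of 11 without sample 38 (median 4.12). HADHB and HADHA, the trifunctional protein of beta-oxidation, differed by 4.29 ± 0.55 and 3.86 ± 0.52, ETFDH by 3.63 ± 0.53 and ACSL1, which activates fatty acids, by 2.81 ± 0.36 (edgeR adjusted p = 6.82e-05, 0.0001, 0.000183 and 6.81e-05). Without sample 38 these were 4.54, 4.12, 3.87 and 2.94. HADHB had 855, 1072 and 1475 CPM in the other 5 heart samples, 65 in sample 38 and 28.3, 41.7 and 62.9 in blood. CPT2, of the mitochondrial carnitine shuttle, was not called in either fit (0.79 ± 0.73 with all 12 samples). In pig 4494 alone, where sample 38 is 1 of 3 heart samples, 1 gene of the TCA list and 2 of the fatty acid list were called, with medians of 2.52 and 3.18. In the same pig without sample 38 it was 15 of 15 and 10 of 11, with medians of 3.01 and 4.17.

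Genes encoding muscle and non-muscle forms of the same enzyme or transporter were compared one by one, without a test within families. Of 18 tested members, 9 were called higher in heart and 1 in blood, or 11 and 5 of 20 without sample 38, and the median was 1.22 and 1.67. Over all genes tested the shares were 17.8% and 10.2%, and 25.5% and 17.9% without sample 38. The blood-side counts lie near that background. ENO3, muscle enolase, had 991, 1596 and 1692 CPM in the other 5 heart samples, 11 in sample 38 and 0.865, 1.61 and 5.66 in blood. ENO1, the general enolase, had 69.4 to 140.3 CPM in the other 5 heart samples, 787 in sample 38 and 151 to 275 in blood, and was not called in either fit. PFKM, muscle phosphofructokinase, differed by 6.97 ± 0.71 (edgeR adjusted p = 1.35e-05), whereas PFKL and PFKP gave 1.22 ± 0.73 and 0.54 ± 0.66 and were not called.

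Among the hexokinases, HK1 had 439, 586 and 606 CPM in the other 5 heart samples and 73.5, 105 and 114 in blood, and HK2, the muscle form, 4.39 to 79.7 and 1.13 to 12.5. Both were called higher in heart (2.32 ± 0.26 and 2.74 ± 0.77). HK2 was not called in pig 4494 alone, with sample 38 (1.26) or without it (0.84), nor with counts summed per pig (2.80). HK3, the form of myeloid cells, had 98.5 to 277 CPM in blood, 9.65 to 56.7 in the other 5 heart samples and 976 in sample 38. It gave -1.22 ± 1.41 with sample 38 and -3.08 ± 0.48 without it (edgeR adjusted p = 0.556 and 4.69e-05). LDHA (-1.17 ± 0.25), the calcium pump ATP2A3 of blood cells (-2.81 ± 0.42) and ACTB (-1.38 ± 0.40) were likewise called higher in blood only without sample 38, which held 679, 252 and 71183 CPM of them. ITPR3, a calcium release channel of non-muscle cells, was called in blood in both fits (-2.02 ± 0.36 and -2.26 ± 0.31). The phosphoglycerate mutases PGAM1 (1.22 ± 0.30) and PGAM2, the muscle form (5.16 ± 0.58 without sample 38, not tested with it), and COX7A2 (1.84 ± 0.42) were higher in heart. CPT1A, the general carnitine palmitoyltransferase, was called in neither fit, and CPT1B, CKB and SLC2A4 had 0 counts in all 12 samples. Whether those 0 counts reflect expression or the assignment of reads to these genes was not tested.

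Genes of the vessel wall and the interstitium were higher in heart in all tested list members. In summed level, sample 38 kept a larger part of the level of the other heart samples here than for sarcomere genes. It still lay below all of them in 10 of the 15 matrix genes. Of the endothelial markers, 9 of 9 tested were called higher in heart (median 4.58), and 10 of 10 without sample 38 (median 5.02). KDR, a VEGF receptor, had 355, 452 and 582 CPM in the other 5 heart samples, 365 in sample 38 and 0.912, 9.75 and 15.6 in blood. PECAM1, an endothelial adhesion molecule also found on platelets and white cells, had 435, 596 and 786 CPM, 547 in sample 38 and 77.5, 105 and 175 in blood. In both, sample 38 lay inside the range of the other heart samples. The differences were 5.82 ± 0.48 and 2.30 ± 0.27 (edgeR adjusted p = 3.08e-06 and 3.75e-05). FLT1, another VEGF receptor, differed by 7.41 ± 0.83 and ESAM, a junction protein, by 5.90 ± 0.70, and by 7.67 ± 0.58 and 5.76 ± 0.65 without sample 38.

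Fibroblast and matrix genes were called higher in heart for 13 of 13 tested members, and 14 of 14 without sample 38. The median was 10.51 and 10.26, or 9.98 and 9.89 with genes at 0 in blood set to their bound. SPARC, a collagen-binding matrix protein, had 258, 356 and 507 CPM in the other 5 heart samples, 154 in sample 38 and at most 0.445 in blood, a ratio over the 6 heart samples of 2955 (95% Poisson interval 818 to 24402). LUM, the collagen-associated proteoglycan lumican, had 228, 297 and 435 CPM, 94.9 in sample 38 and at most 0.445 in blood. COL6A2, a collagen VI chain, had 87.7, 187 and 470.1 CPM with sample 38 at 450.3, and DCN, decorin, had 397 to 792 with sample 38 at 62.4. The 15 matrix genes together amounted to 6741 CPM in sample 38, 47.1% of the median of the other 5 heart samples, whereas its 16 sarcomere genes amounted to 0.97% of theirs.

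Smooth muscle and pericyte markers were called higher in heart for 6 of 6 genes, and for 7 of 7 without sample 38 (medians 5.37 and 6.04). ACTA2, smooth muscle actin, had 89.5, 124 and 161 CPM in the other 5 heart samples, 157 in sample 38 and 0, 2.04 and 3.44 in blood. CNN1, calponin, had 34.1, 136 and 157 CPM, 63.7 in sample 38 and at most 2.02 in blood. MCAM and CSPG4, surface proteins of pericytes, were also called, the latter at 0 counts in blood and at least 116-fold higher in heart. TAGLN, transgelin, had 1398 CPM in sample 38 against 35.4 to 115 in the other 5 heart samples and made up most of that sample's total of 1688 CPM for the list.

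Other muscle and stromal cell types gave few measurable markers. CASQ1, the skeletal muscle calsequestrin, was the 1 tested gene of 6 skeletal markers with a row and differed by 4.49 ± 0.84 (edgeR adjusted p = 0.00114). NCAM1, of Schwann cells but also of heart muscle and NK cells, was the 1 tested Schwann marker (7.59 ± 1.00). Of the adipocyte markers none passed the filter with sample 38, and PLIN4, a lipid droplet coat protein, was called higher in heart without it (6.70 ± 0.93).

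**Figure D2:**
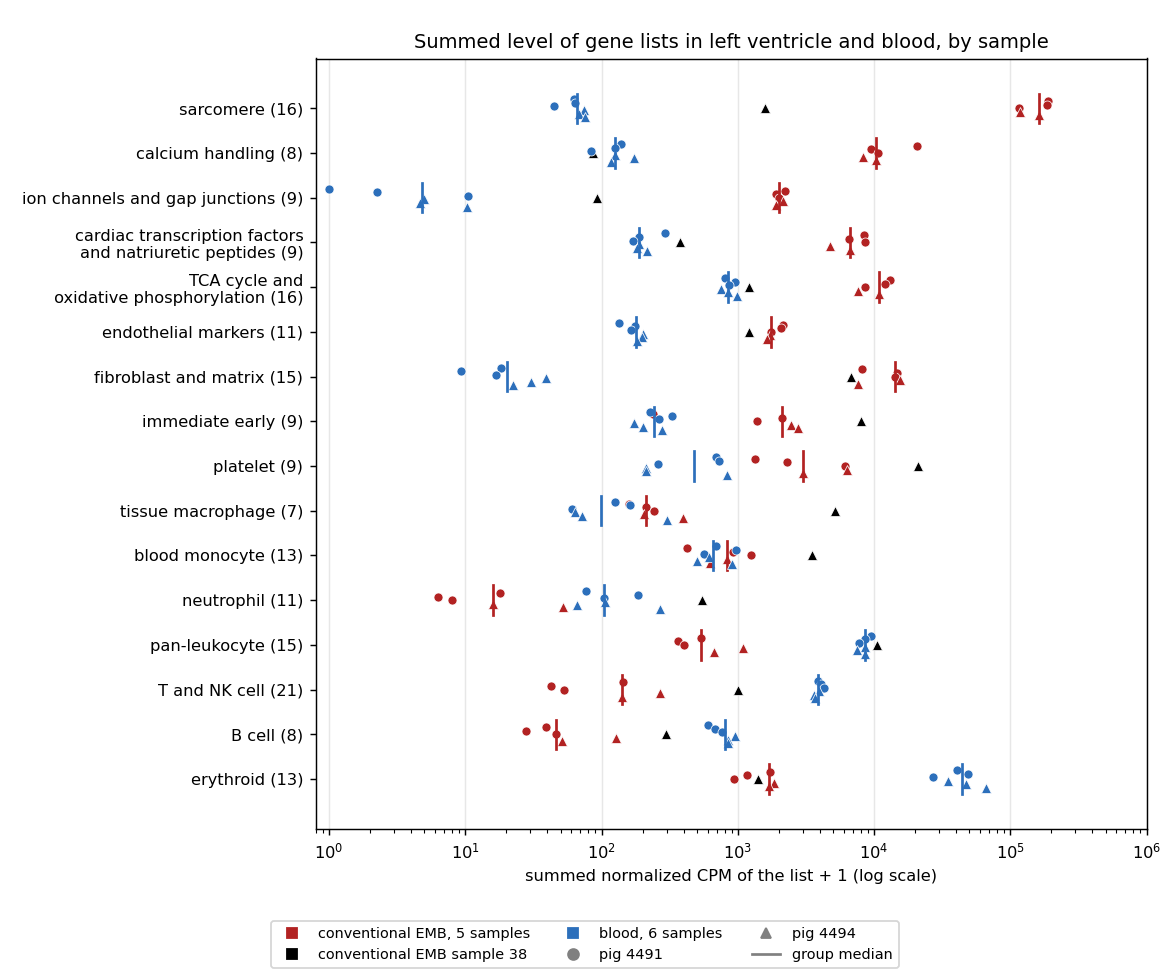
Summed normalized CPM + 1 (log scale) of each gene list in every sample, with the number of genes in brackets. Red marks are the other 5 heart samples, black is sample 38, blue is blood, circles are pig 4491, triangles pig 4494 and bars group medians; sample 38 is far below the other heart samples for sarcomere genes, within the blood range for calcium handling genes, nearer to the other heart samples for endothelial genes, and above every other sample for platelet and immediate early genes.

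Across all genes tested, SPARC and LUM were also among the 10 genes with a symbol that had the smallest p-values on the heart side. CCN1 and CCN2, matricellular proteins, had 41.9, 183 and 355 CPM and 58.9, 429 and 609.8 CPM in the other 5 heart samples, 559 and 588 in sample 38, and under 0.5 CPM in every blood sample. VEGFA, the endothelial growth factor, had 149, 157 and 412 CPM, 166 in sample 38 and 0.288 to 2.95 in blood (6.70 ± 0.48, edgeR adjusted p = 2.07e-06). The Z-disc proteins PDLIM5 (6.05 ± 0.41) and FLNC (7.71 ± 0.56), the exchange factor ARHGEF12 (3.64 ± 0.25), the protease inhibitor SERPINE2 (7.25 ± 0.54) and the secreted matrix protein SPON1 completed the set. Without a symbol, ENSSSCG00000009544 (865 to 2106 CPM in the other 5 heart samples, 392 in sample 38, at most 0.912 in blood) and ENSSSCG00000025396 ranked with them. In all of these genes sample 38 lay above every blood sample, which the ranking favours because it counts sample 38 as heart.

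Without sample 38, the 10 genes with a symbol and the smallest p-values on the heart side were CSRP3, FHOD3, LAMB1, TRIM63, DES, HRC, TNNC1, MYL3, LAMA4 and PDE4DIP. DES, desmin, the intermediate filament of muscle, had 2086, 3249 and 5119 CPM in the other 5 heart samples, 1.3 in sample 38 and at most 0.378 in blood. CSRP3, a Z-disc protein, and HRC, a calcium-binding protein of the sarcoplasmic reticulum, also had 1.3 CPM in sample 38. TRIM63, a muscle ubiquitin ligase, and TNNC1 were at 0 there, inside the blood range. These 5 genes did not pass the filter with sample 38. It had 9.75 to 49.4 CPM of the other 5, among them the laminin chains LAMB1 (22.7 CPM, against 455 to 609 in the other 5 heart samples) and LAMA4 (37 against 748 to 1002).

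Immediate early genes, which are induced within minutes by stress or injury, were called higher in heart for 6 of 8 tested members, and for 5 of 8 without sample 38 (medians 3.66 and 3.06). EGR1 had 45.8, 836 and 977 CPM in the other 5 heart samples, 413 in sample 38 and 0.782, 5.87 and 9.83 in blood. FOS had 31.4, 276 and 557 CPM, 3302 in sample 38 and 0.912, 1.77 and 8.32 in blood. Heart samples varied widely among themselves for both genes, and none overlapped with blood. The differences were 6.70 ± 0.73 and 7.51 ± 1.18 (edgeR adjusted p = 2.07e-05 and 0.000294). IER3 (7.29 ± 0.85) and DUSP1 (3.95 ± 0.88) were called in both fits, while JUNB was called only with sample 38. MYC, also in the list, gave 0.40 ± 0.32 and was not called. Over all genes tested, 17.8% were called higher in heart, and 25.5% without sample 38.

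In the opposite direction, red cell genes were higher in blood. Of 11 tested erythroid genes, 8 were called higher in blood, 1 higher in heart and 2 not, with a median of -3.93; without sample 38 it was 9, 1 and 1, with a median of -4.13. HBB, the beta chain of hemoglobin, had 19295, 39757 and 61834 CPM in blood, 26.9, 69.5 and 587 in the other 5 heart samples and 795 in sample 38. The tissues did not overlap, and the highest heart sample was sample 38. The difference was -7.05 ± 0.94, and -7.38 ± 0.86 without sample 38 (edgeR adjusted p = 9.13e-05 and 2.24e-06). HBB and ALAS2, as well as TNNT2, MYBPC3, NEBL and RYR2, were picked by the study on these samples as tissue genes, so their direction here is not independent evidence.

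ALAS2, the first enzyme of heme synthesis in red cells, had 3177, 3808 and 6801 CPM in blood, 3.49, 16 and 58.8 in the other 5 heart samples and 226 in sample 38. SLC4A1, the band 3 anion exchanger, had 53.2, 81.1 and 136 CPM in blood, 0, 1.59 and 4.28 in the other 5 heart samples and 3.9 in sample 38. HBM, an alpha-like globin, had 70.4 to 885 CPM in blood and at most 9.1 in any heart sample. Their differences were -6.60 ± 0.98, -5.51 ± 0.67 and -7.12 ± 1.15. The one erythroid gene called higher in heart was ANK1, an ankyrin that striated muscle also makes, with 622, 868 and 1138 CPM in the other 5 heart samples, 235 in sample 38 and 16, 25 and 31.8 in blood (4.95 ± 0.39, edgeR adjusted p = 2.58e-06). Summed over the 13 erythroid genes, sample 38 had 1398 CPM, inside the range of 934 to 1852 CPM of the other 5 heart samples and 0.0317 times the blood median. ANK1 made up much of that sum in the other hearts. Over the 12 erythroid genes without ANK1, sample 38 had 1163 CPM, above the 302 to 1135 CPM of the other 5 heart samples and below the 27046 to 66515 CPM of blood.

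Lymphocyte genes were also higher in blood. Of 17 tested T and NK cell genes, 15 were called higher in blood, and 17 of 17 without sample 38 (medians -4.05 and -4.85). TCF7 and LEF1, transcription factors of naive T cells, had 753, 998 and 1102 CPM and 339, 603 and 753 CPM in blood. In the other 5 heart samples they had 0.529, 28.8 and 55.3 and 2.65, 6.42 and 35.1 CPM, and in sample 38 they had 114 and 60.4. Sample 38 thus lay between the tissues for both. CD2, an adhesion receptor of T and NK cells, had 465, 605 and 737 CPM in blood, 9 to 36.7 in the other 5 heart samples and 136 in sample 38 (-4.05 ± 0.59, edgeR adjusted p = 0.00017). TBX21, a factor of cytotoxic and helper cells, differed by -4.25 ± 0.50 (-4.12 ± 0.48 without sample 38), with 1.95 CPM in sample 38, inside the range of the other heart samples.

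Of 6 tested B cell genes, 5 were called higher in blood in both fits (medians -3.48 and -4.59). MS4A1, which encodes CD20, had 203, 288 and 449.6 CPM in blood, 0, 3.21 and 16.7 in the other 5 heart samples and 16.2 in sample 38 (-5.39 ± 0.82, edgeR adjusted p = 0.000248). CD79B, of the B cell receptor, had 53.2, 95.9 and 114 CPM in blood, 0, 0 and 12.3 in the other 5 heart samples and 11.7 in sample 38. CD22 and BLK, of B cell receptor signalling, differed by -3.60 ± 0.77 and -3.36 ± 0.97, and by -4.05 ± 0.58 and -4.55 ± 0.62 without sample 38. EBF1, a B lineage factor that stromal cells also express, was not called (0.16 ± 0.49).

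Genes shared by all white cells depended on sample 38. Of 15 pan-leukocyte genes, 7 were called higher in blood with it (median -2.20) and 15 of 15 without it (median -3.90). Under total-count scaling the former number was 12. PTPRC, the CD45 antigen, had 3105, 3334 and 4401 CPM in blood, 74.6, 138 and 482 in the other 5 heart samples and 2371 in sample 38. Its difference was -3.46 ± 0.82 with sample 38 and -4.39 ± 0.44 without it (edgeR adjusted p = 0.00541 and 3.75e-07). RAC2, a GTPase of white cells, had 217, 289 and 677 CPM in blood and 223 in sample 38, inside the blood range, against 0.996 to 23.5 in the other 5 heart samples.

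FLI1, a factor of blood and endothelial cells, had 56.3, 82.2 and 106 CPM in blood, 19.6, 23.4 and 27.8 in the other 5 heart samples and 46.8 in sample 38. DOCK2, a regulator of white cell migration, differed by -3.51 ± 0.75, and by -4.73 ± 0.32 without sample 38. LCP1, the leukocyte form of plastin, shows how one sample removed a call: blood had 1139, 1278 and 1440.5 CPM, the other 5 heart samples 77.3, 101 and 172, and sample 38 had 2098. The result was -2.20 ± 0.83 (edgeR adjusted p = 0.0581) with sample 38 and -3.57 ± 0.26 (edgeR adjusted p = 9.09e-09) without it. LCP1 is outside the rule for named genes and was chosen after its values were seen.

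Antigen presentation genes were called higher in blood for 2 of 6 tested members, and for 6 of 6 without sample 38 (medians -1.49 and -1.91). CIITA, the master regulator of class II genes, had 93.1, 170.3 and 223 CPM in blood, 12.8, 18.4 and 30.9 in the other 5 heart samples and 52.6 in sample 38 (-2.68 ± 0.40, edgeR adjusted p = 0.000195). SLA-DMA, which loads peptides on class II molecules, differed by -1.76 ± 0.40 (-1.91 ± 0.39 without sample 38). The share of all genes tested that were called higher in blood was 10.2%, and 17.9% without sample 38. Of 7 tested interferon response genes 0 were called by edgeR with sample 38, 1 (IFIT1, in blood) at an unadjusted p under 0.05 and 1 by DESeq2, and 5 were called higher in blood without it (medians -0.61 and -1.44).

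**Figure D3:**
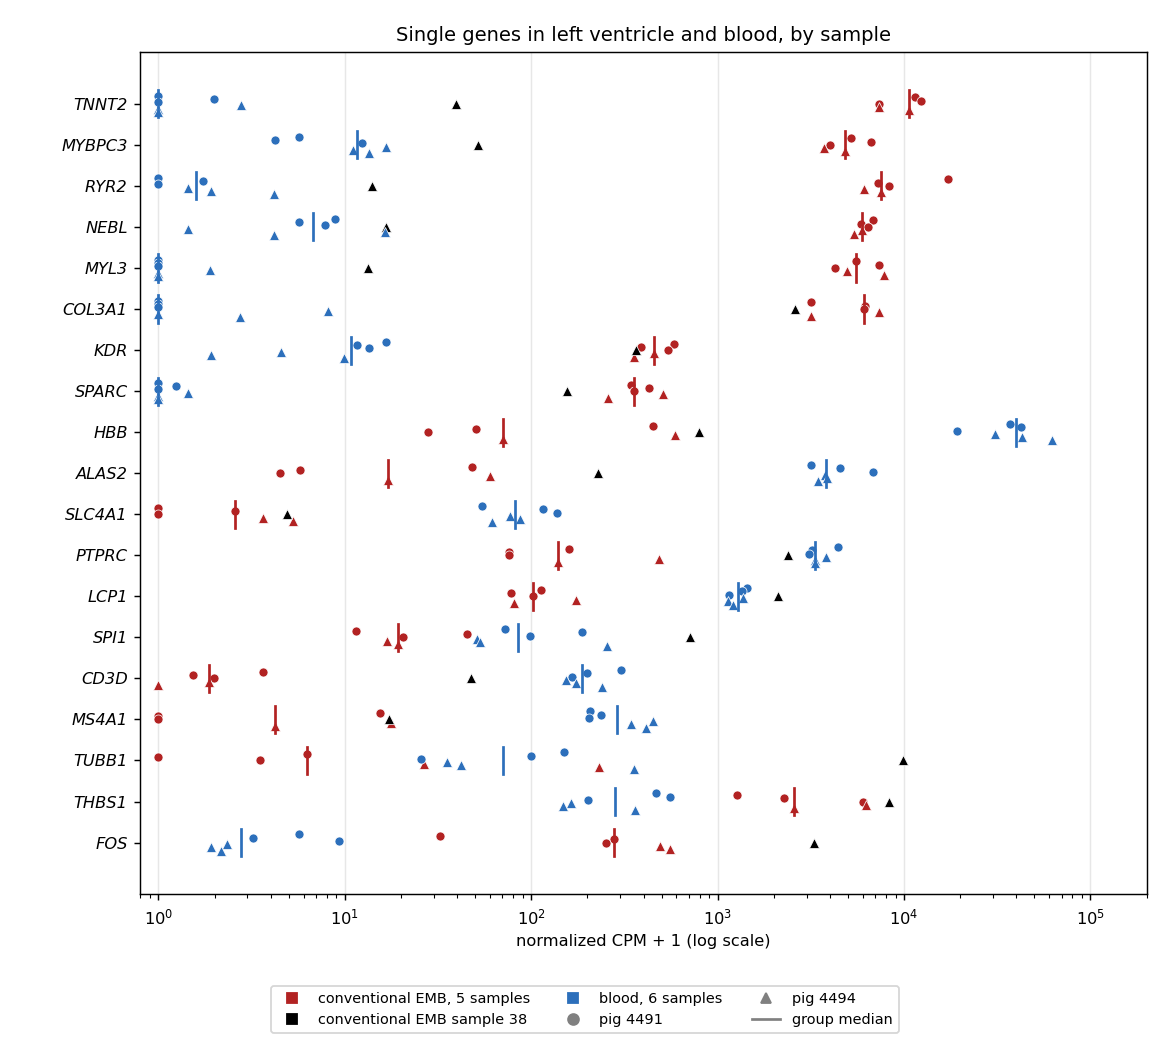
Normalized CPM + 1 (log scale) of single genes in every sample, for muscle, stromal, red cell, white cell, platelet and immediate early genes. Red marks are the other 5 heart samples, black is sample 38, blue is blood, circles are pig 4491, triangles pig 4494 and bars group medians; for HBB, ALAS2 and SLC4A1 sample 38 is with or near the heart samples, for PTPRC, LCP1 and SPI1 it is near or above blood.

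Myeloid genes were mixed. Of 3 tested neutrophil genes, 0 were called by edgeR with sample 38 (also 0 at an unadjusted p under 0.05), and 3 of 3 were called higher in blood without it (medians -1.60 and -3.60). DESeq2 with sample 38 called 0 members higher in blood and 1 higher in heart, AQP9, a water and glycerol channel that edgeR did not test. MMP9, a gelatinase stored in neutrophil granules, had 16.4, 49.3 and 162 CPM in blood, 0.529, 5.26 and 11.8 in the other 5 heart samples and 204 in sample 38, above every blood sample. Its difference was -1.90 ± 1.10 with sample 38 and -3.86 ± 0.67 without it (edgeR adjusted p = 0.217 and 0.000143). AQP9 and MMP9 were chosen after their values were seen. S100A8, one of the defining neutrophil markers, was near 0 in blood as well (0 to 10.1 CPM), and CD3E and PPBP had no row by symbol.

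Blood monocyte genes did not go one way. Of 11 tested, 2 were called higher in heart and 1 higher in blood, or 2 and 7 without sample 38 (medians -0.49 and -1.31). The counts with sample 38 lie near the shares over all genes tested, 17.8% and 10.2%. Those shares were 25.5% and 17.9% without sample 38. CX3CR1, a chemokine receptor of patrolling monocytes and NK cells, had 18.5, 38.7 and 48.4 CPM in blood, 1.49, 7.48 and 18 in the other 5 heart samples and 2.6 in sample 38 (-2.28 ± 0.59, edgeR adjusted p = 0.00936). The heart-side genes were VCAN, a proteoglycan that stromal cells also secrete (1.48 ± 0.35), and CD68, a lysosomal protein of monocytes and macrophages (1.84 ± 0.53). CD68 had 18.3, 24.6 and 33.4 CPM in the other 5 heart samples, 5.85 in sample 38 and 1.37, 6.8 and 9.22 in blood.

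The tissue macrophage markers that were called were higher in heart. The sum of the list overlapped between the tissues, with 157 to 395 CPM in the other 5 heart samples and 59.7 to 300 in blood. MRC1, the mannose receptor, was the 1 of 2 tested genes called with sample 38, and 4 of 5 were called without it (median 5.34). It had 53.5, 72 and 127 CPM in the other 5 heart samples, 0.65 in sample 38 and 0, 0.456 and 9.83 in blood, so that sample 38 lay with blood. F13A1, coagulation factor XIII of macrophages and platelets, was not called and reached 5173 CPM in sample 38, against 15.4 to 284 in the other 5 heart samples and 47.3 to 299 in blood. It made up nearly all of the 5187 CPM of that list in sample 38.

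Of 5 tested platelet genes, 1 was called, and it was higher in heart: THBS1, thrombospondin 1, a protein of platelet granules that vascular and stromal cells also make, had 1276, 2579.9 and 6265 CPM in the other 5 heart samples, 8337 in sample 38 and 146, 281 and 556 in blood (3.83 ± 0.58, edgeR adjusted p = 0.00024). The count was also 1 of 5 without sample 38, with medians of 1.93 and 0.77. Of all genes tested, 17.8% and 25.5% were called higher in heart, so 1 of 5 lies near the background. TUBB1, the platelet form of beta-tubulin, had 9829 CPM in sample 38, 0 to 229 in the other 5 heart samples and 24.6 to 357 in blood.

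At the top of the blood side over all genes were HMMR, SPINK4, SMC6, OBI1, CCR9, MAP3K1, RBL1, SLAMF6, GABARAPL2 and CEP152. HMMR, a hyaluronan receptor and spindle protein, had 617, 1199 and 1645 CPM in blood, 10.1, 17.5 and 52.4 in the other 5 heart samples and 28.6 in sample 38 (-5.47 ± 0.48, edgeR adjusted p = 4.98e-06). CCR9, a gut-homing receptor of lymphocytes, had 17, 39.8 and 58.3 CPM in blood, 0 in sample 38 and at most 1.07 in the other 5 heart samples, a ratio of blood over the 6 heart samples of 219 (95% Poisson interval 39.3 to 8639). SLAMF6, a receptor of T, B and NK cells, differed by -3.97 ± 0.43. SMC6 and CEP152, of chromosome and centrosome maintenance, OBI1, the kinase MAP3K1, the cell cycle repressor RBL1 and GABARAPL2, of autophagy, differed by -2.51 to -3.38. In each of the 10 genes sample 38 lay below every blood sample, with values from 0 to 283 CPM. ENSSSCG00000009240 and ENSSSCG00000006418, which have no symbol, ranked with them at -4.07 ± 0.39 and -2.40 ± 0.25. These ranks come from a fit in which sample 38 counts as heart, so genes that it shares with blood could not reach them.

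Without sample 38, the corresponding 10 were CD3D, LCK, PIK3AP1, STK38, DOCK2, CD2, ARAP2, RIPOR2, LCP1 and ARG1. CD3D, a chain of the T cell receptor complex, had 153, 186 and 304 CPM in blood, 0, 0.877 and 2.62 in the other 5 heart samples and 46.8 in sample 38. Its difference was -7.81 ± 0.44 without sample 38 and -5.07 ± 1.05 with it (edgeR adjusted p = 5.64e-10 and 0.00227). LCK, a T cell kinase, went from -6.59 ± 0.38 to -4.65 ± 0.98. In these 10 genes sample 38 lay above all the other heart samples. It was inside the blood range for PIK3AP1 (608 CPM) and RIPOR2 (629.7), above it for LCP1 and below it for the other 7.

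Sample 38 was described gene by gene against both groups. Of the 2565 genes called higher in heart without it, sample 38 lay below all the other heart samples in 2016. It lay above every blood sample in 1208 of the 2565, inside the range of blood in 1059 and below it in 298. Of the 1795 genes called higher in blood without it, it lay above all the other heart samples in 1273, inside the range of blood in 573, above blood in 487 and below blood in 735. Relative to the blood mean, the median in sample 38 over the list members called higher in blood without it was 165% for the pan-leukocyte list, 348% for monocyte, 316% for neutrophil, 42.8% for B cell, 34.3% for T and NK cell and 4.44% for erythroid genes. In the other 5 heart samples the medians were 8.10% for pan-leukocyte, 25.9% for monocyte, 9.67% for neutrophil, 4.78% for B cell, 3.64% for T and NK cell and 3.75% for erythroid genes. All genes counted in this paragraph so far were chosen by the fit of these 5 heart samples against blood. Low medians in the 5 were therefore largely fixed in advance. Sample 38 took no part in that choice, so its positions and medians are a description only. Of the main red cell genes, HBB and ALAS2 were higher in sample 38 than in any other heart sample, and far below blood.

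In 87 genes sample 38 exceeded 50 CPM and was over 10 times the highest of the other 11 samples. Among the 57 with a symbol were G0S2 (373 CPM against at most 5.82), the protease ADAM8 (862 against 15), the neutrophil chemokine CXCL8 (573 against 14.9), the glycolytic regulator PFKFB3 (2164 against 77), and the platelet genes TUBB1 (9829 against 357) and TREML1 (813 against 34.2). These were chosen after their values were seen. Its platelet list summed to 21073 CPM, 44.7 times the blood median, whereas its pan-leukocyte list was 1.22 times and its erythroid list 0.0317 times that of blood. Over all 54 samples, scaled to total counts, 1 sample had a higher platelet sum than sample 38, a follow-up micro-EMB sample at 32221 CPM against 14468. Its sarcomere sum of 1077 CPM was lower than that of 47 samples.

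**Figure D4:**
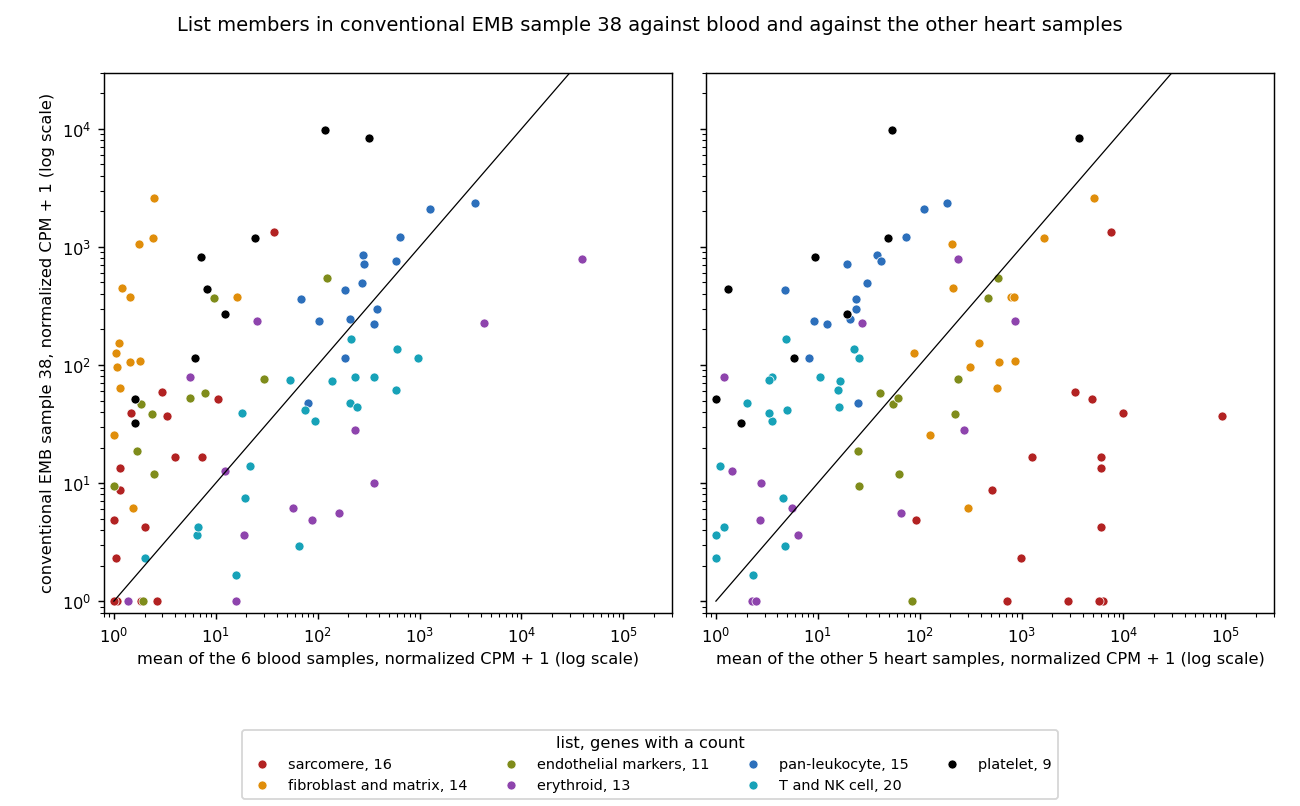
Normalized CPM + 1 (log scales) of list members in sample 38 against the mean of the 6 blood samples on the left and of the other 5 heart samples on the right; the line marks equal values. Sarcomere genes lie far under the line on the right, endothelial and matrix genes near or under it, pan-leukocyte genes near the line on the left, erythroid genes with high blood levels far under it there, and platelet genes above it in both.

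The study's own literature lists were counted in the same comparison. Of its 58 inflammatory genes, 14 were called higher in heart, 7 higher in blood, 30 were not called and 7 were not tested, with a median of 0.45; without sample 38 the numbers were 16, 14, 24 and 4, with a median of 0.19. Of all genes tested, 17.8% and 10.2% were called in these directions, and 25.5% and 17.9% without sample 38. The called shares of the list were not tested against them. On the heart side VEGFA, the matrix glycoprotein FN1 (5.66 ± 0.47), the chemokine CCL2 (8.03 ± 0.92) and AGT, angiotensinogen, had the smallest p-values. AGT had 51.1 to 149 CPM in the other 5 heart samples, 23.4 in sample 38 and 0 counts in blood, at least 455-fold higher. On the blood side were CX3CR1, the methyl-DNA-binding MBD2 (-1.21 ± 0.29), the prostaglandin receptor PTGER2 (-2.51 ± 0.64) and the transcription factor SP1, which lay at the fold limit and did not reach it when heart samples 6 or 12 or blood samples 20 or 28 were left out (-0.94, -0.96, -0.99 and -0.93).

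Of the 22 macrophage genes, 9 were called higher in heart and 1 in blood, 6 were not called and 6 not tested, with a median of 1.29. Without sample 38 it was 11, 2, 5 and 4, with a median of 1.51. The shares over all genes tested were 17.8% and 10.2%, and 25.5% and 17.9% without sample 38. The called shares of this list were not tested against them. GLUL, glutamine synthetase, had 179, 195 and 287 CPM in the other 5 heart samples, 557 in sample 38 and 6.26, 45.4 and 50.6 in blood (2.83 ± 0.43, edgeR adjusted p = 0.00024). The cholesterol transporter ABCA1 (2.03 ± 0.35), the collagen-modifying PLOD1 (2.45 ± 0.45) and the kinase CAMK1 (2.87 ± 0.64) followed. The gene on the blood side was ENSSSCG00000012117, which the gene-name table calls TLR7 and the study's list PRPS2 (-1.40 ± 0.35).

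Heart samples had more expressed genes than blood by a margin that depended on single samples. At 1 CPM or more, 11904 ± 1070 genes were expressed in heart (SD, n = 6) and 10721 ± 777 in blood (SD, n = 6), a difference of 1182.8 (exact two-sided permutation test, p = 0.026). Tissue labels were permuted over all samples without regard to pig, here and in the permutation tests below. Without sample 38, which had 10666, the difference was 1430.4 (exact two-sided permutation test, p = 0.00433). It was 1407.2 with every sample drawn down to the lowest total of 950326 counts (exact two-sided permutation test, p = 0.00866). Without heart sample 40, which had 13909, it fell to 781.8 and missed the threshold (exact two-sided permutation test, p = 0.0606). The threshold was also missed without blood sample 5 (887.8, p = 0.0649) or 28 (1149.6, p = 0.0519; exact permutation tests).

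The difference between the tissues was also compared between the pigs. The interaction was called for 1 gene (0.0107%) over all 12 samples, while 889 had an unadjusted p-value under 0.05, and for 10 genes (0.0995%) without sample 38, with 713 under 0.05. The gene called in both, ENSSSCG00000009829, had 0 CPM in the 3 heart samples of pig 4491, 38.6, 53.3 and 19.2 in samples 18, 38 and 40 of pig 4494, and 50.4 to 165 in blood (edgeR adjusted p = 0.042). Without sample 38, the white cell genes BIN2, SYTL3, PLCB2, CASS4, PRKCQ, CD6 and GIMAP6 and the unnamed ENSSSCG00000025037 were higher in heart samples 18 and 40 than in the hearts of pig 4491, at 8.55 to 56.7 CPM against 0 to 10.5. NCAM1 went the other way, through blood: it was at 0 to 0.246 CPM in the blood of pig 4491 and 3.11 to 4.9 in that of pig 4494.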

How the data were processed

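RNA was sequenced from 6 conventional EMB and 6 blood samples, with a stranded total-RNA kit for low input. The authors trimmed reads (Trim Galore), mapped them to Sscrofa10.2 (STAR), assigned them to genes (featureCounts; tool versions not given in the sources used here) and deposited whole-number counts per gene for 25114 genes, without ribosomal RNA and mitochondrial genes. RNA was isolated in batches that are not in the labels used here. Levels of near-identical genes cannot be told apart.

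Symbols came from a gene table that names 46.9% of the genes; 260 of 385 list symbols matched. The counts were filtered with filterByExpr (minimum count 10), scaled by TMM and fitted with edgeR 4.0.16 in R 4.3.3, model pig plus tissue, for 2 pigs. Poisson intervals (95%), the floor of 3 counts over a group and permutation tests used scipy 1.17.1; intervals cover counting error only. Other tools were DESeq2 1.42.0 and limma 3.58.1, with figures from matplotlib 3.10.9. On simulated counts with these group sizes, edgeR recovered 73 of 98 genes changed by a log2 of 3 and 15 of 96 changed by 1.5. Without sample 38 it was 88 of 97 and 48 of 95, with 7 false calls each. The simulation held no pig effect, no library with the profile of sample 38 and far fewer changed genes than were called here. Its rates therefore need not hold for these data.

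Members and lists were chosen with earlier results of these data known. Named genes are, per list, the 4 called members with the smallest p in its main direction and up to 3 in the other; over all genes the 10 with a symbol and 2 without in each direction; all isoform pairs; the study's tissue genes; and 4 in each direction of its 2 gene lists. Genes outside the rule include the 10 of each direction without sample 38; 1 gene of the rule is not reported here. The labels number samples across all groups, so pairing is by pig only.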

Additional observations from a re-analysis of the deposited data

Results flagged for a closer look

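Of 134 checks of the 6 samples of a tissue for 1 value apart from the rest (Dixon's ratio above 0.625), 28 were met, 19 of them by heart sample 38, 1 by another heart sample and 8 by blood samples. Chance meets about 1 in 20 such checks. The part of sequencing, handling or tissue content in these values was not tested.

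Heart sample 38 lay apart from the other 5 heart samples on the high side for the summed CPM of 9 of the white cell, platelet and response lists and of smooth muscle markers. It had 540 CPM of neutrophil, 3513 of blood monocyte, 1009 of T and NK cell and 296 of B cell genes. Its tissue macrophage list summed to 5187 CPM, nearly all of it F13A1. In 4 of the 7 genes of that list, sample 38 lay below all the other heart samples. It had 21073 CPM of platelet, 10462 of pan-leukocyte, 495 of antigen presentation and 8014 of immediate early genes. Its smooth muscle and pericyte list summed to 1688 CPM, mostly TAGLN, and its isoform pairs to 76202 CPM, mostly ACTB. On the low side it had 92.3 CPM of ion channel and gap junction genes.

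Among single genes, sample 38 was apart and low for ABCC9 (27.9 CPM), GJA1 (57.2), IDH2 (90.3) and NEBL (15.6). It was apart and high for FLI1 (46.8 CPM), DOCK2 (114) and ALAS2 (226). ALAS2 in sample 38 was still under the 3177 CPM of the lowest blood sample.

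Heart sample 40 had 13909 genes at 1 CPM or more, against 10666 to 11810 in the other heart samples. Blood sample 51 was apart for antigen presentation genes (633 CPM), RYR2 (3.17 CPM) and CNN1 (2.02 CPM), and blood sample 28 for ALAS2 (6801 CPM) and MRC1 (9.83 CPM). FLT1 in blood sample 5 (5.48 CPM), LUM in blood sample 14 (0.445 CPM) and CASQ1 in blood sample 27 (10.03 CPM) were also apart. Apart from antigen presentation genes and ALAS2, all of these blood values rest on few counts.

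The heart minus blood difference of ENSSSCG00000009829 was less negative in pig 4494 than in pig 4491, by a fitted log2 of 10.28 (edgeR interaction test, adjusted p = 0.042). Heart was thus closer to blood in pig 4494. Its level was 0 in the 3 heart samples of pig 4491, so the fitted size is no bound.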

How the results depend on the processing

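Fits of 12 samples from 2 animals limit these results, and sample 38 decided the number of calls more than any other library: leaving out each sample in turn gave 2311 to 4360 called genes, 1517 to 2565 higher in heart and 791 to 1795 higher in blood, with sample 38 at the upper end of each. Leaving pig out of the model (no replicate block) gave 1736 and 907 calls against 1669 and 960, and no paired analysis beyond pig was possible because the labels tie no heart sample to a blood sample. DESeq2 called 4515 genes (3338 in heart), no filter 4062 (2793 in heart), and a test against a log2 fold change of 1 called 1586 (436 in blood). Counts summed per pig gave 1191 (1074 and 117), pig 4494 alone 714 (560 and 154), and pig 4491 alone 1629 higher in blood. Total counts alone gave 1529 higher in blood. Chosen after seeing the data, DESeq2 without sample 38 gave 5604 (3620 and 1984), counts summed without it 4015 (1534 in blood), and pig 4494 without it 2262 and 1241. The share of calls higher in heart was 73.9% with DESeq2, 90.2% with summed counts and 78.4% in pig 4494 alone. With counts summed per pig 32 named genes fell short of the limits for a call, and 31 did so in pig 4494 alone. Without sample 38 these numbers were 1 and 7. The interaction was called for 10 genes without sample 38, 2 with total counts, 469 without the filter and 160 with DESeq2. Leaving out any blood sample gave 7 calcium handling calls instead of 3, because the filter then asks for 5 samples and genes at 0 in sample 38 pass. No list median changed sign with the scaling. In pig 4494 alone the neutrophil, blood monocyte and interferon medians were 1.05, 1.06 and 0.36, in pig 4491 alone the platelet median was -0.19, and with DESeq2 the monocyte median was 0.047. Leaving out each sample in turn (for samples other than 38, chosen after seeing the data), the difference in expressed genes ranged from 781.8 to 1430.4, and it missed the threshold without heart sample 40 (781.8) or blood sample 5 (887.83) or 28 (1149.6). At 5 CPM, heart exceeded blood by 732.5 expressed genes (exact permutation test, p = 0.0476).

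Reversed values were all of genes not called over the 12 samples. Without sample 38, PFKP became -0.49, CPT1A -0.086 and ACTB -1.38. With counts summed without it they were -0.66, -0.15 and -1.60, with DESeq2 without it -0.44, -0.036 and -1.32, and in pig 4491 alone -0.39, -0.53 and -1.73. Pig 4494 without sample 38 gave PFKL -0.43, PFKP -0.78 and ACTB -1.07. Pig 4494 alone gave HK3 1.40, ENO1 0.65, LDHA 0.91 and ATP2A3 0.058. Total counts gave CPT1A -0.021 and ACTB -0.0085, the model without pig ENO1 0.19 and LDHA 0.20, and DESeq2's size factors ENO1 0.024. Without heart sample 6, 23, 18 or 40 or blood sample 20, ENO1 was 0.16, 0.047, 0.10, 0.022 and 0.19. Without heart sample 23 or blood sample 20, LDHA was 0.087 and 0.039, and without blood sample 14 or 27, ACTB was -0.27 and -0.28. The cause was not tested.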

Other observations

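The pigs differed in antiviral genes in both tissues. The pig term of the same model, looked at after seeing the data, called 0 genes over all 12 samples (edgeR, 394 at an unadjusted p under 0.05) and, without sample 38, 16 genes higher in pig 4491 (0.159%) and 0 higher in pig 4494, with 457 at an unadjusted p under 0.05. They included MX1, MX2, OAS2, RSAD2, IFIT1, IFIT2 and ZBP1, which are induced by interferon, and RIGI, a sensor of viral RNA. MX1 had 633 to 1022 CPM in the blood of pig 4491 and 101 to 128 in that of pig 4494, and 137 to 233 against 35.3 to 61.4 in the heart samples without sample 38 (2.44 ± 0.27 SE, edgeR adjusted p = 0.001). Sample 38, from pig 4494, had 517 CPM. Among the 16 were 5 of the 7 interferon response genes with counts. With 1 animal on each side, animal and condition cannot be told apart.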
